A study of Homo sapiens with 6 samples.

Results

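Cholesterol and fatty acids are both built from acetyl-CoA, and the genes of the 2 routes were followed here with 6 oligonucleotide arrays in U373, a cell line from a human glioblastoma. The set holds genes of fatty acid synthesis, desaturation and activation (the fatty acid arm), genes of the route from acetyl-CoA to cholesterol (the cholesterol arm), and regulators with sterol transporters. A gene belonged to the set if it was named in a list of 35 symbols and if at least 1 probe set, the group of short probes that reads a transcript, was annotated with its symbol alone. This gave 29 genes of the 8226 that the array names in this way, read by 36 probe sets. They were 9 of 12 listed genes of the fatty acid arm, 15 of 18 of the cholesterol arm and 5 of 5 regulators and transporters. FADS1 and CYP51A1 were read only by probe sets that also carry another symbol, and ACSL3, GPAM, FDFT1 and HSD17B7 were named on no probe set used here.

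The cells carried a syk construct in an ecdysone-inducible expression system, in which ponasterone A (PonA), a steroid, switches the promoter on. SYK is a kinase that relays signals of immune receptors. The groups were syk-transfected cells given ethanol and PonA at day 1 and at day 2, syk-transfected cells given ethanol at day 1, syk-transfected cells without treatment at day 1 and at day 2, and untransfected cells without treatment at day 1. PonA was used at 10 µM. Each group was 1 array. Ethanol is the solvent of PonA, and there was no ethanol array at day 2 and no PonA array of untransfected cells, so PonA and what the construct does in its presence cannot be told apart. All cells grew in medium with fetal calf serum, which supplies lipoprotein cholesterol. The labels do not say whether the transfected cells were 1 clone, nor how many hours of PonA lay behind each array.

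The 6 arrays had been scaled to the same trimmed mean signal of 150.1. Signals under the 40th percentile of an array, between 22.7 and 26.5 units, are called below the floor. Of 3 probe sets for SYK, 1 gave 39.1 and 72.5 units with PonA, against 14.4 to 22.2 units on the other transfected arrays (adjusted p = 0.0803 in limma), 1 overlapped between the groups and 1 stayed under the floor. Of 8 astroglial marker genes, 4 were above the floor on all arrays and 2, AQP4 and SLC1A2, on none. SLC1A3, a glutamate transporter, rose with PonA on its brighter probe set (2.88 ± 0.26 on the log2 scale, adjusted p = 0.00410 in limma). Its other probe set was under the floor on all 6 arrays, and the other 5 astroglial genes tested were not called. The astroglial markers summed to 8113 and 6969 units with PonA and 6503 to 7299 on the other transfected arrays. GFAP, the astrocyte filament, gave 103 to 229 units in transfected cells against 1533 in untransfected cells. The summed signal of 14 mitosis genes was 2251 and 1640 units on the PonA arrays, against 9699 to 11955 on the other transfected arrays. All 14 had a negative PonA effect in limma, and 13 were called lower, or 92.9%, against 2.37% of all probe sets tested. CDK1 was not called on its brightest probe set (-0.78 ± 0.32). Of its dimmer probe sets, 33324_s_at was called lower (-1.67 ± 0.34) and 40915_r_at was not called (-0.22 ± 0.19). The haematopoietic markers summed to 317 and 278 units with PonA and 255 to 346 without it, with PTPRC, CD14 and SPI1 under the floor on all 6 arrays, CD3E and CD68 above it on all 6 and LCP1 above it on 4. The oligodendrocyte markers summed to 323 and 228 units with PonA and 229 to 295 on the other transfected arrays, with MAG and MOG above the floor on all 6 arrays and MBP and OLIG2 on none. The epithelial and fibroblast markers summed to 2415 and 2501 units with PonA and 2334 to 2498 on the other transfected arrays. The neuronal markers summed to 148 and 146 units with PonA and 305 to 427 on the other transfected arrays, against 802 in untransfected cells. Of these 6 genes, only GAP43, a growth cone gene, was above the floor on all 6 arrays, and SNAP25 was on none. GAP43 fell (-1.83 ± 0.20, adjusted p = 0.00599 in limma). It gave 64.7 and 75.7 units with PonA and 184 to 322 on the other transfected arrays, most of the gap between these sums. NEFL, a neurofilament gene, gave 458 of the 802 units. SYP, SYT1 and NEFL were tested and not called, with log2 effects of -0.47, 0.08 and -0.06. The part that these shifts have in the lipid gene results was not tested, and fewer cells of a kind and less RNA per cell cannot be told apart in bulk RNA.

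As background, animal cells sense sterols in the endoplasmic reticulum. When sterols are low, the SREBP factors, encoded by SREBF1 and SREBF2, are cut free from the membrane and switch on lipid genes. SREBF2 products act mainly on the cholesterol arm and SREBF1 products mainly on the fatty acid arm. INSIG proteins hold the SREBPs back, and INSIG1 is itself a target. Liver X receptors, which sense oxysterols and pair with RXR, drive SREBF1, SCD and ABCA1. Glioma cells are known for a high demand on both routes.

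Promoters are shown for the 2 genes that passed the test with PonA, SCD and DHCR7, for INSIG1 and HMGCS1 as well-known SREBP targets, and for SREBF2 as the regulator that holds a sterol element. Each is the 250 bases before a start of transcription, from RefSeq on GRCh38.p14, written 5′ to 3′ on the gene's strand, and capitals mark the motifs searched. The windows are chr10:100346983-100347232 (plus strand) for SCD, chr11:71448394-71448643 (minus strand) for DHCR7, chr7:155297628-155297877 (plus strand) for INSIG1, chr5:43313413-43313662 (minus strand) for HMGCS1 and chr22:41832855-41833104 (plus strand) for SREBF2. DHCR7 and HMGCS1 have a further start each, whose window is not shown.
SCD: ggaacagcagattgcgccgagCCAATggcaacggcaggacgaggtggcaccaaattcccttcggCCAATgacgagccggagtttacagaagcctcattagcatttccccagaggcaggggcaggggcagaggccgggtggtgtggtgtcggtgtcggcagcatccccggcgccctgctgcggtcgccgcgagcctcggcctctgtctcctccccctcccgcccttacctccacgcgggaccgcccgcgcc
DHCR7: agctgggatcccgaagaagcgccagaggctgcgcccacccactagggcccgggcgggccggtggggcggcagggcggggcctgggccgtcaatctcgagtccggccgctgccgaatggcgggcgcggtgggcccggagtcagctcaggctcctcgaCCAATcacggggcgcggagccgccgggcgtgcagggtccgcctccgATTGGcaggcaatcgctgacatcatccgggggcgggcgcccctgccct
INSIG1: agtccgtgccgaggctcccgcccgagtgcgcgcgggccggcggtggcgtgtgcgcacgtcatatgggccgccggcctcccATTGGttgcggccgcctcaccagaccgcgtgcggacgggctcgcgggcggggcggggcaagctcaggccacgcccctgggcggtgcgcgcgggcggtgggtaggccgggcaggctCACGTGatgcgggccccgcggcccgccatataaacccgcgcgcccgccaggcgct
HMGCS1: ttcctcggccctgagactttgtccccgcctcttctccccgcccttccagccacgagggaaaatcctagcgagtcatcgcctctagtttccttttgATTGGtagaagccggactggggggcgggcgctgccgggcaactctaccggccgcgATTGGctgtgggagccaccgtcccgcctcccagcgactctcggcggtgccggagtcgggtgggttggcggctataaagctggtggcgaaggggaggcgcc
SREBF2: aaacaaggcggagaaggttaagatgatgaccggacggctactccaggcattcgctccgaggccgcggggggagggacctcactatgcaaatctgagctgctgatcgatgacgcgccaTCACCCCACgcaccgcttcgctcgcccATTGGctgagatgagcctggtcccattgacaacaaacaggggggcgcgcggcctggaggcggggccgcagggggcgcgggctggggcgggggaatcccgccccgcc

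3 motifs were searched on both strands: the sterol regulatory element in the form TCACNCCAC, the E-box CACGTG and the CCAAT box. SCD holds CCAAT from -229 to -225 and from -186 to -182, counted back from the start. DHCR7 holds CCAAT from -94 to -90 and, on the opposite strand, from -48 to -44. INSIG1 holds the E-box from -55 to -50 and CCAAT on the opposite strand from -170 to -166. HMGCS1 holds CCAAT on the opposite strand from -155 to -151 and from -100 to -96. SREBF2 holds the sterol element from -133 to -125 and CCAAT on the opposite strand from -106 to -102. Promoters were found in the table for 26 of the 29 genes, 40 windows in all. CCAAT stood in 24 of the 40 windows, in 20 genes, and 32.0% of all 35116 promoter windows hold it. The sterol element stood in 2 of the 40, of ACSL1 and SREBF2, against 0.883% of all windows. The E-box stood in 4 of the 40, of ABCA1, INSIG1 and SC5D, against 6.34%. Windows of the same gene can overlap, and a match describes letters only.

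2 genes of the set rose with PonA, one in each arm. SCD, the desaturase that turns stearate into oleate, was 4.26-fold higher with PonA, and DHCR7, the reductase of the last step to cholesterol, was 2.40-fold higher. No gene of the set passed the test for a fall. EBP, LSS, TM7SF2 and SREBF1 were lower on both PonA arrays than on the other transfected arrays without passing it. They are 15.4% of the genes tested, against 16.2% of all probe sets tested, so near the background. SQLE, SC5D and MSMO1 were higher on both PonA arrays than on the other transfected arrays without being called. The test was an additive limma fit with terms for PonA and day over the 5 transfected arrays, on the log2 signal with values under the floor set to it. A probe set was tested if it exceeded the floor on at least 2 of those arrays, with Benjamini-Hochberg adjustment over all 7934 and a threshold of 0.05. Of the 29 genes, each represented by its brightest probe set, 26 were tested, and all 26 were above the floor on all 6 arrays. The 2 calls are 7.69% of them, against 5.07% of all probe sets tested. By direction, 2.70% of all probe sets were higher and 2.37% were lower. The 2 residual degrees of freedom hold the ethanol difference and the difference of the PonA effect between days, so p-values set PonA against those and not against repeated cultures.

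SCD (probe set 37513_at) gave 413 and 237 units with PonA at day 1 and day 2, against 93.0 in ethanol, 94.0 and 58.5 without treatment at day 1 and day 2, and 112 in untransfected cells. Both PonA arrays lay above all 4 others, and the ethanol and untreated arrays of day 1 were almost the same. The signal was 4.45-fold higher than with ethanol and 4.40-fold higher than without treatment at day 1, and 4.06-fold higher than without treatment at day 2. The fitted log2 effect was 2.09 ± 0.16 (SE) with an adjusted p of 0.00395 in limma. The level at day 2 was lower than at day 1 with PonA and without it, by log2 differences of -0.80 and -0.68.

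DHCR7 (39059_at) gave 1309 and 1593 units with PonA at day 1 and day 2, against 652 in ethanol, 484 and 640 without treatment, and 768 in untransfected cells. The PonA arrays again lay above all others without overlap. The folds were 2.01 over ethanol and 2.71 over no treatment at day 1, and 2.49 over no treatment at day 2, and the fitted log2 effect was 1.26 ± 0.20 (adjusted p = 0.0214 in limma). This call rests on single arrays: leaving out the PonA array of day 1 gave an adjusted p of 0.121, and leaving out the PonA or the untreated array of day 2 gave 0.124 in limma, with effects of 1.32 and 1.22. SCD and DHCR7 were also the 2 members that were at least 2-fold higher in all 3 PonA comparisons, which 1.26% of probe sets were. No member was at least 2-fold lower in all 3, which 1.30% were.

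**Figure D1:**
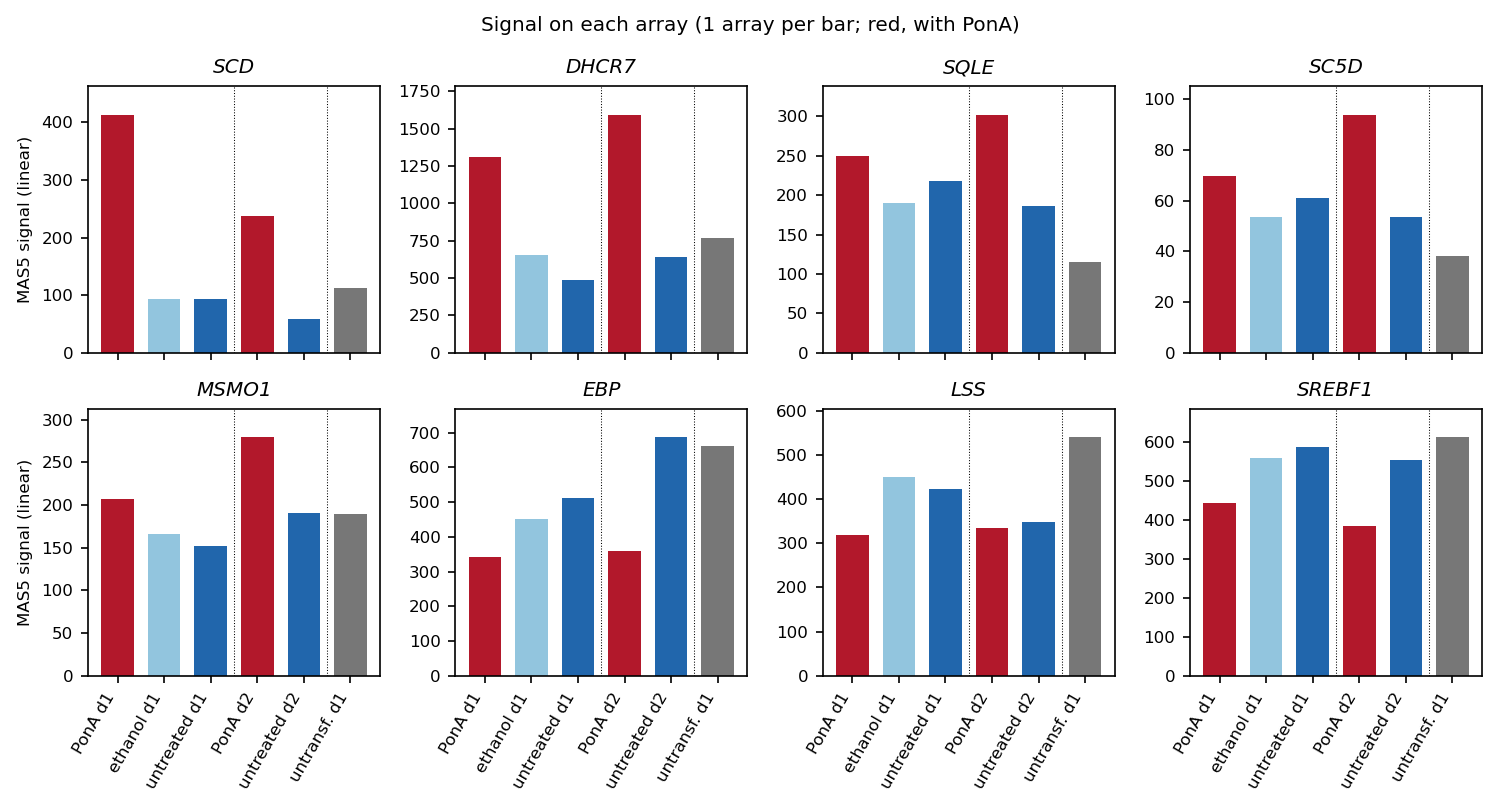
MAS5 signal (linear scale, starting at 0) of 8 genes on the 6 arrays, 1 bar per array, with PonA in red, ethanol in light blue, untreated transfected cells in blue and untransfected cells in grey. SCD and DHCR7 stand highest on both PonA arrays, SQLE, SC5D and MSMO1 are higher there by less, and EBP, LSS and SREBF1 are lower there.

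The other genes of the fatty acid arm did not pass the test. 8 genes of this arm were tested, 6 effects were above 0 and 2 below, and the 7 that were not called ranged from -0.26 to 0.51 on the log2 scale. The lowest was FADS2, the desaturase that opens the route to long polyunsaturated fatty acids (-0.26 ± 0.19, adjusted p = 0.529 in limma). The highest was ACACB, the acetyl-CoA carboxylase at mitochondria (0.51 ± 0.31, adjusted p = 0.442 in limma). FASN, the synthase that builds palmitate, gave 599 and 601 units with PonA, against 484 with ethanol, 639 and 530 without treatment and 722 in untransfected cells. Its PonA arrays lay between the others, and its effect was 0.14 ± 0.19 (adjusted p = 0.762 in limma).

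ACLY makes cytosolic acetyl-CoA from citrate and ACACA turns it into malonyl-CoA, and their log2 effects were 0.02 ± 0.20 and 0.37 ± 0.18. FADS3, a desaturase that acts on sphingoid bases, had 0.24 ± 0.29, and ACSL1, which activates long fatty acids with coenzyme A, had -0.20 ± 0.18. Adjusted p of these 4 lay between 0.319 and 0.976 in limma. ACSL4, the ligase that prefers arachidonate, was above the floor only with PonA at day 2, at 23.1 units, and was not tested. No gene tested in the arm other than SCD had an effect above 0.51, FASN, ACACA and ACLY, which act upstream of SCD, included.

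In the cholesterol arm 13 genes were tested, 6 effects were above 0 and 7 below, and the 12 that were not called ranged from -0.68 to 0.51. Of the early steps, the thiolase ACAT2 had a log2 effect of -0.52 ± 0.22, the kinases MVK and PMVK had 0.00 ± 0.19 and -0.22 ± 0.21, the isomerase IDI1 had 0.40 ± 0.38 and the synthase FDPS had -0.37 ± 0.16. None passed, with adjusted p from 0.268 to 0.999 in limma. HMGCS1, which makes HMG-CoA for the mevalonate pathway, lay under the floor on all 6 arrays with 10.4 and 11.0 units with PonA, against 17.4 with ethanol, 14.0 and 15.8 without treatment and 17.2 in untransfected cells. MVD, the decarboxylase of the pathway, lay between 3.67 and 9.46 units on all 6 and also had no test.

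The later steps had effects of both signs, and of these genes only DHCR7 passed. SQLE, the epoxidase that commits squalene to sterols, gave 249 and 302 units with PonA, against 190 with ethanol, 217 and 186 without treatment and 115 in untransfected cells (0.47 ± 0.19, adjusted p = 0.240 in limma). MSMO1, an oxidase that removes methyl groups from sterols, had 0.45 ± 0.17 (adjusted p = 0.207 in limma), and its other probe set had 0.43 ± 0.18. SC5D, the desaturase that makes the substrate of DHCR7, gave 69.5 and 93.9 units with PonA, against 53.4 with ethanol, 61.0 and 53.5 without treatment and 38.2 in untransfected cells (0.51 ± 0.20, adjusted p = 0.225 in limma). In all 3 genes the PonA arrays lay above the other transfected arrays, with differences that did not pass the test.

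EBP, the sterol isomerase that acts just before SC5D, had the lowest effect of the set. It gave 342 and 359 units with PonA, against 452 with ethanol, 511 and 686 without treatment and 662 in untransfected cells. Both PonA arrays lay below all others, with a log2 effect of -0.68 ± 0.19 (adjusted p = 0.106 in limma). With an intensity trend in the variance prior, the same effect had an adjusted p of 0.0317. LSS, the cyclase that makes lanosterol, had -0.28 ± 0.18, TM7SF2, a sterol reductase, had -0.28 ± 0.20 and NSDHL, a dehydrogenase of sterol demethylation, had -0.13 ± 0.16, with adjusted p from 0.468 to 0.721 in limma. EBP, SC5D and DHCR7 act one after another in the last part of the route, and their values were -0.68, 0.51 and 1.26, of which the last passed.

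The regulators and transporters did not pass either: 5 were tested, with log2 effects from -0.43 to 0.16. INSIG1 gave 143 and 236 units with PonA, against 116 with ethanol, 150 and 240 without treatment and 243 in untransfected cells. Among the transfected arrays both day 2 values were above all day 1 values with or without PonA, while the untransfected array of day 1 was level with day 2. The effect was 0.05 ± 0.19 for PonA (adjusted p = 0.917 in limma). SREBF1 gave 445 and 386 units with PonA, against 560 with ethanol, 589 and 554 without treatment and 613 in untransfected cells, so that both PonA arrays were the lowest of the 6 (-0.43 ± 0.17, adjusted p = 0.219 in limma). SREBF2 gave 306 and 320 units with PonA, against 396 with ethanol, 303 and 328 without treatment and 417 in untransfected cells, and its groups overlapped (-0.12 ± 0.19, adjusted p = 0.806 in limma). ABCA1, the cholesterol exporter, had 0.16 ± 0.21 and NPC1, which releases cholesterol from lysosomes, had 0.03 ± 0.16.

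Side by side, the median log2 PonA effect was 0.19 in the fatty acid arm and -0.13 in the cholesterol arm, a difference of 0.32, while a single gene's median SE was 0.19. Over all 26 genes the median was 0.03, and over all probe sets tested it was 0.01. Each arm held 1 call, 12.5% of its tested genes in the fatty acid arm and 7.69% in the cholesterol arm. Of all probe sets tested 5.07% were called, and the arm percentages differ only by the number of genes tested. At an unadjusted p under 0.05 there were 1 of 8 in the fatty acid arm, 5 of 13 in the cholesterol arm and 1 of 5 regulators, or 7 of 26 in all, against 19.5% of all probe sets tested. The difference of the medians is a description, since the genes of an arm are not replicates. It was above 0 in all 12 alternative settings run, at 0.14 to 0.43. Those settings reuse the same arrays and genes, so they are not independent checks.

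Without regard to the fit, both PonA arrays lay above the other 3 transfected arrays for 5 of the 26 genes (SCD, DHCR7, SQLE, SC5D and MSMO1) and below them for 4 (EBP, LSS, TM7SF2 and SREBF1). These are 19.2% and 15.4%, against 16.7% and 16.2% of all probe sets tested, so the set is near the background in both directions. By arm, 1 of 8 fatty acid genes was higher and 0 lower, and 4 of 13 cholesterol genes were higher and 3 lower.

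**Figure D2:**
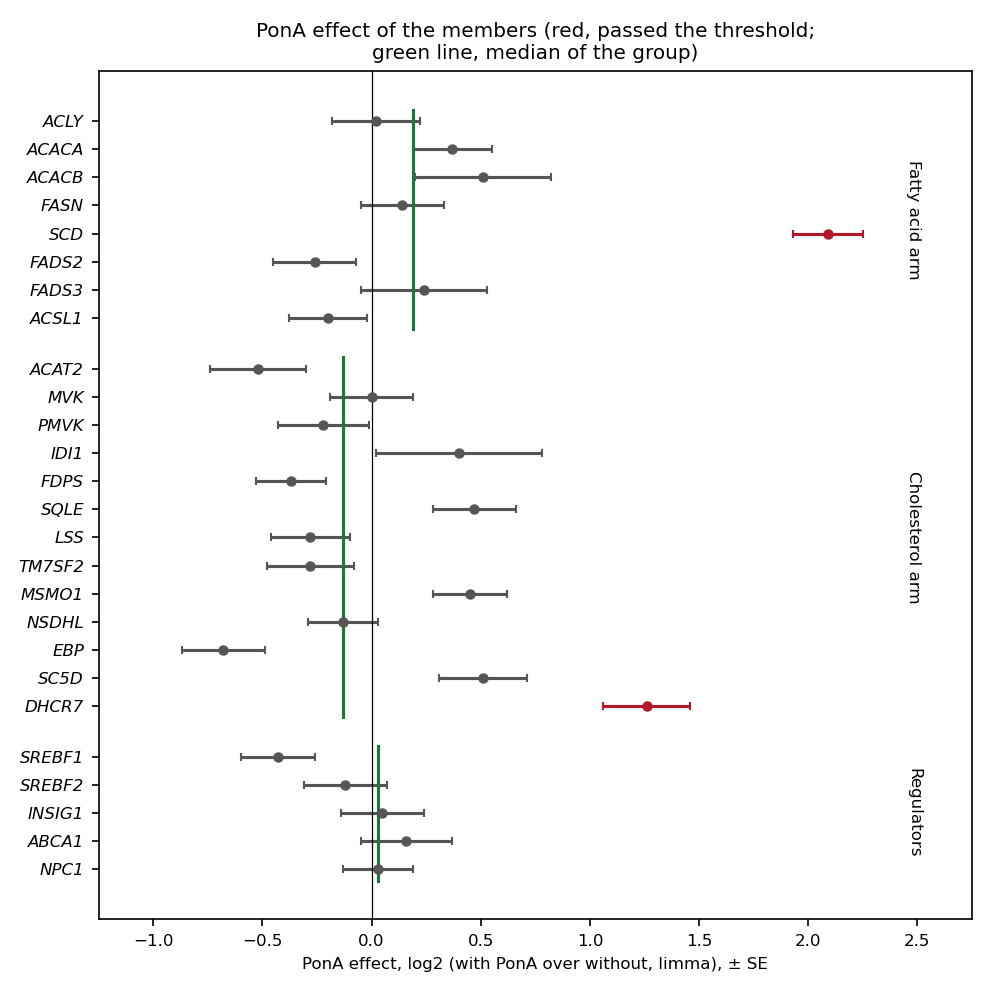
Log2 PonA effect of the 26 tested genes (points) with its SE (bars) from the limma fit, arranged by arm, with the 2 genes that passed the threshold in red and the median of each group as a green line. SCD at 2.09 and DHCR7 at 1.26 stand apart, and the medians are 0.19 in the fatty acid arm, -0.13 in the cholesterol arm and 0.03 in the regulators.

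By day, the PonA differences over untreated cells of IDI1 and FADS3 were the least alike. IDI1, which makes dimethylallyl diphosphate for isoprenoid chains, gave 194 and 473 units with PonA at day 1 and day 2, against 171 in ethanol, 294 and 203 without treatment and 314 in untransfected cells. Its signal with PonA was the highest of all at day 2 and lay between the ethanol and the untreated array at day 1, and the PonA-by-day term was 1.43 ± 0.55 on the log2 scale (adjusted p = 1.00 in limma). FADS3 gave 576 and 459 units with PonA, against 401 with ethanol and 308 and 604 without treatment, with a term of -1.11 ± 0.44 (adjusted p = 1.00 in limma). The fit called 0 of 7934 probe sets for this term (0%), with 330 at an unadjusted p under 0.05, of which 2 were these members. That fit has 1 residual degree of freedom, the ethanol difference.

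Between single arrays, which have no test, members were counted where they were at least 2-fold apart with at least 1 side above the floor. With PonA over ethanol at day 1 these were SCD and DHCR7, 2 of 26, against 5.62% of all probe sets. With PonA over no treatment at day 1, ACACB joined them at 2.34-fold, making 3 of 26 against 6.71%. With PonA over no treatment at day 2, IDI1 joined SCD and DHCR7 at 2.33-fold, making 3 of 26 against 8.71%. ACACB gave 112 units with PonA at day 1, against 91.3 in ethanol and 47.7 without treatment, so that its log2 difference over ethanol was 0.29. These comparisons share arrays and are not independent of each other.

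Ethanol alone moved no member 2-fold (0 of 26, against 2.18% of all probe sets). ACACB was highest with a log2 difference of 0.94 over no treatment and IDI1 was lowest with -0.78, and the median of the 26 was 0.07. 24 of the 26 differed by less than 1.5-fold.

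Between the single arrays of day 1 and day 2 the arm medians had opposite signs. That is a description, since the genes of an arm are not replicates and no test was run. In PonA-treated cells the median log2 difference of day 2 over day 1 was -0.37 in the fatty acid arm, with 6 of 8 genes below 0, and 0.28 in the cholesterol arm, with 11 of 13 above 0. In untreated cells the medians were -0.16, with 5 of 8 below 0, and 0.21, with 9 of 13 above 0, beside medians of -0.07 and -0.06 over all probe sets. INSIG1 was higher at day 2 by 0.72 with PonA and by 0.68 without it. At least 2-fold apart were IDI1 (2.44-fold higher) and ABCA1 (0.487-fold) with PonA, 2 of 26 against 2.93%, and 0 of 26 in untreated cells, against 3.19%. A dimmer ABCA1 probe set, above the floor on all 6 arrays, gave 0.637-fold with PonA, and the remaining one was under it on all 6. The 3′ to 5′ ratio of the beta-actin control also moved with day, at 1.20 and 1.21 on the day 2 arrays of PonA-treated and untreated cells and 0.960 to 0.987 on the day 1 arrays. That of GAPDH did not separate the days, at 1.04 and 0.946 on the day 2 arrays of PonA-treated and untreated cells and 0.939 to 1.01 on the day 1 arrays. The part of the beta-actin shift in these differences was not tested.

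**Figure D3:**
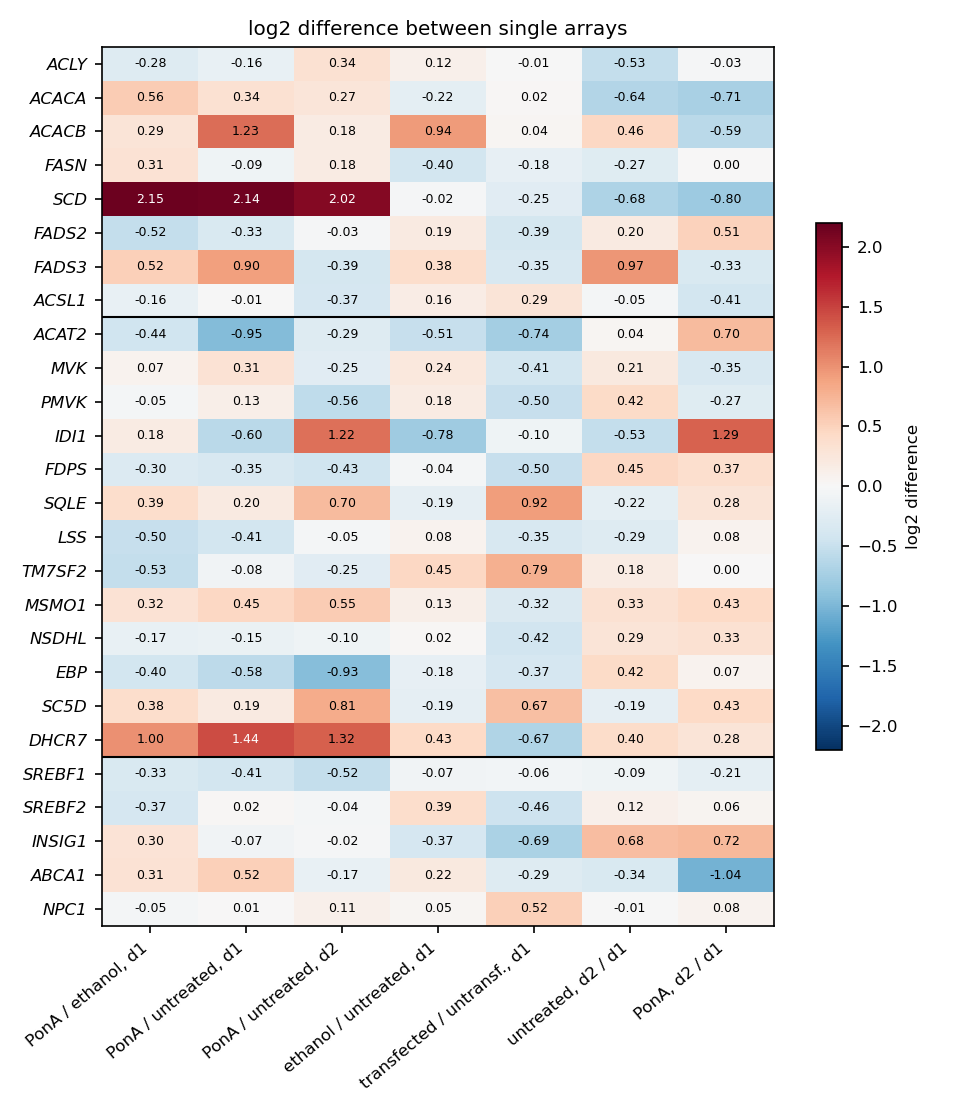
Log2 differences (colour and printed value) of the 26 tested genes, in rows by arm and with horizontal lines between the groups, in 7 comparisons of 1 array with 1 array (d1 and d2, day 1 and day 2). The SCD row is above 2 in the 3 PonA columns and the DHCR7 row at 1.00 to 1.44, and in the last column the fatty acid rows are mostly below 0 and the cholesterol rows mostly above.

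Transfected untreated cells differed from untransfected cells at day 1 by a median log2 difference of -0.30 over the 26 genes, with 19 below 0, while the median over all probe sets was 0.04. By group the medians were -0.09 in the fatty acid arm, -0.37 in the cholesterol arm and -0.29 in the regulators. No gene was 2-fold apart (0 of 26, against 5.72%). The lowest was ACAT2 with -0.74, at 91.7 units against 153 in untransfected cells, and INSIG1 followed with -0.69 and DHCR7 with -0.67. The highest were SQLE with 0.92, TM7SF2 with 0.79 and SC5D with 0.67.

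All 5 transfected arrays lay below the untransfected array for 11 of the 26 genes, or 42.3%, against 20.4% of all probe sets tested. These were FASN and FADS2 of the fatty acid arm, ACAT2, MVK, PMVK, FDPS, LSS and NSDHL of the cholesterol arm, and SREBF1, SREBF2 and INSIG1. All 5 lay above it for 5 genes, ACACB, SQLE, TM7SF2, SC5D and NPC1, or 19.2%, against 23.0%. FDPS, which makes farnesyl diphosphate, gave 277 and 358 units with PonA, 342 with ethanol and 352 and 482 without treatment, against 496 in untransfected cells. Every one of these comparisons rests on the 1 untransfected array, on which the spiked control transcripts had a geometric mean signal of 157 against 271 to 501 on the transfected arrays. GFAP and the neurofilament gene NEFL also differed there, NEFL with 10.1 to 26.5 units on the transfected arrays against 458 in untransfected cells. The part of these differences was not tested.

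**Figure D4:**
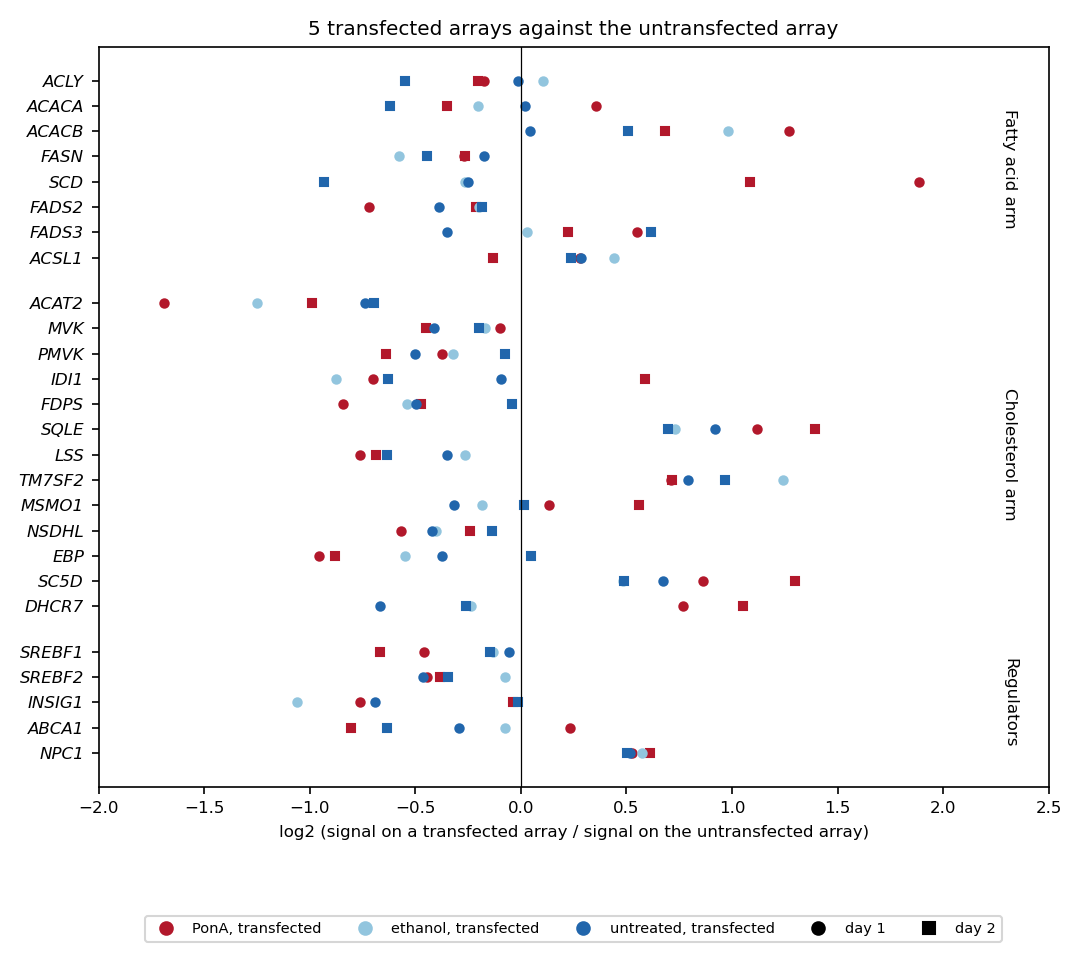
Log2 of the signal on each of the 5 transfected arrays over the signal on the untransfected array for the 26 tested genes, by arm (red, PonA; light blue, ethanol; dark blue, untreated; circles, day 1; squares, day 2). For 11 genes all 5 points lie below 0 and for 5 genes all lie above 0.

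Among neighbouring lipid genes that are not members, 3 lists were counted in the PonA fit. Of 16 tested genes in other lipid synthesis, 0 were higher and 1 was lower, or 6.25% called against 5.07% of all probe sets tested, with a median effect of 0.14. The one that fell was LBR, a lamin receptor of the nuclear envelope that also carries the sterol reductase activity of TM7SF2. LBR gave 83.8 and 98.1 units with PonA, against 174 with ethanol, 223 and 217 without treatment and 190 in untransfected cells (-1.20 ± 0.19, adjusted p = 0.0214 in limma). Its PonA arrays were below all others, and its adjusted p was 0.110 to 0.154 without either PonA array. Of 9 tested genes of sterol transport and liver X receptor action, none passed, with a median of 0.07.

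Of 18 tested genes of fatty acid oxidation, the breakdown of fatty acids in mitochondria, 0 were higher and 2 were lower, or 11.1% against 5.07% of all probe sets, and the median effect was -0.14. ETFB, a subunit of the flavoprotein that carries electrons from beta-oxidation, gave 233 and 267 units with PonA, against 402 with ethanol, 380 and 667 without treatment and 564 in untransfected cells (-0.99 ± 0.20, adjusted p = 0.0428 in limma). SLC25A20, the carnitine carrier of the mitochondrial membrane, gave 26.1 and 23.3 units with PonA, against 42.6 with ethanol, 49.2 and 45.9 without treatment and 54.1 in untransfected cells (-0.87 ± 0.18, adjusted p = 0.0437 in limma). Its PonA value of day 1 lay under the floor. Both PonA arrays were below the other 3 transfected arrays for 9 of the 18 genes, against 16.2% of all probe sets tested, and above them for 4, against 16.7%. In the fit 9 effects were above 0 and 9 below. Both calls are lost when the PonA array of day 1 or of day 2 is left out, where adjusted p in limma was 0.0822 and 0.293 for ETFB and 0.193 and 0.281 for SLC25A20. For HADH, a dehydrogenase of the same route, the brighter probe set had -0.52 ± 0.21 (adjusted p = 0.238 in limma) and the dimmer had -0.98 ± 0.17 (adjusted p = 0.0280 in limma), so the probe sets disagree on the call.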

How the data were processed

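Total RNA from 6 U373 samples was hybridised to Affymetrix Human Genome U95 Av2 arrays. The submitters' processing notes name MAS5, whose version is not given in the sources used here. The deposited values are MAS5 signal intensity per probe set on a linear scale, which the authors had scaled to a common trimmed mean. The table holds 12558 probe sets besides 67 controls. Symbols came from GEO's platform annotation, updated to RefSeq GRCh38.p14, and 10943 probe sets have 1 symbol, 545 several and 1070 none. No rescaling was done here.

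Signals under the 40th percentile of each array were set to it and put on the log2 scale. limma 3.58.1 in R 4.3.3 (lmFit and eBayes, 4.48 prior degrees of freedom) was used as described with the results. A single-array comparison has no replicate check. Nothing says that cultures were separate, so p-values measure only the spread between these arrays. The number of arrays limits precision.

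The members and gene lists were chosen with earlier results of these data known. Values on every array were given by rule for genes past the threshold, for those 2-fold apart in all 3 PonA comparisons, and for INSIG1, SREBF1, SREBF2, FASN and HMGCS1. The lowest and highest effect of each arm were named. SQLE, SC5D, EBP, IDI1, FADS3 and FDPS, and the promoter of SREBF2, were chosen after their values were seen. Alternatives were another floor, no floor, quantile normalization, no filter, the median over probe sets, no day term, an intensity trend and leaving out each array.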

Additional observations from a re-analysis of the deposited data

Results flagged for a closer look

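For 4 members the PonA array lay on opposite sides of the arrays without PonA at the 2 days. At day 1 it was below both the ethanol and the untreated array for ACLY and above both for FADS3, MVK and ABCA1, and at day 2 it was on the other side of the untreated array. The PonA-by-day term, the log2 PonA effect of day 2 minus that of day 1, was 0.57 ± 0.40 for ACLY, -1.11 ± 0.44 for FADS3, -0.44 ± 0.41 for MVK and -0.58 ± 0.41 for ABCA1 (SE). Each had an adjusted p of 1.00 in limma over all probe sets tested. ACLY gave 790 and 776 units with PonA at day 1 and day 2, against 961 in ethanol and 885 and 611 without treatment. MVK gave 321 and 252 units with PonA, against 305 in ethanol and 259 and 300 without treatment. ABCA1 gave 187 and 91.3 units with PonA, against 151 in ethanol and 130 and 103 without treatment. The values of FADS3 stand in the report.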

How the results depend on the processing

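No paired analysis was possible because each group is 1 array and the labels carry no replicate numbers. The number of members called higher was 1 in place of 2 with the floor at the 20th percentile and with no filter on dim probe sets, and ranged from 1 to 2 when arrays were left out in turn. Leaving out either day 2 array gives the same fit, since the day term then takes up the other. The number called lower was 1 in place of 0 with an intensity trend, which is EBP. SCD passed in 11 of 11 alternatives, with effects of 1.88 to 2.14 and adjusted p of 0.000353 to 0.0408 in limma. DHCR7 passed in 6 of 11, with 1.16 to 1.38 and 0.00171 to 0.124. Over all probe sets, 107 were called in place of 402 with the lower floor, 29 with no filter and 625 with the trend, and 107 to 653 with an array left out. The by-day term called 86 in place of 0 with no filter, and no member.

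Members 2-fold apart were 1 in place of 2 for PonA over ethanol with no floor, and 1 in place of 0 for transfected over untransfected with the lower floor. They were 1 in place of 2 for PonA at day 2 over day 1 with no floor, with quantile normalization and with the median of a gene's probe sets. For PonA over no treatment at day 1 they were 4 in place of 3 with quantile normalization and 2 with that median. For PonA over no treatment at day 2 they were 4 in place of 3 with the lower floor. Of 319 effects recomputed over 29 named genes, 277 kept direction and side of the threshold, 23 lost the call, 1 gained it and 18, over 8 genes, changed sign, all of them uncalled. With no day term the effect was -0.04 for ACLY and -0.01 for MVK. With quantile normalization it was -0.01 for MVK and -0.01 for NPC1. With each array left out in turn, the effect ranged from -0.22 to 0.34 for ACLY, from -0.39 to 0.71 for FADS3, from -0.25 to 0.19 for MVK, from -0.56 to 0.04 for PMVK, from -0.21 to 1.22 for IDI1, from -0.05 to 0.14 for INSIG1, from -0.17 to 0.41 for ABCA1 and from -0.02 to 0.11 for NPC1. The cause of these shifts was not tested. Signal near the floor limits HMGCS1, MVD and ACSL4.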
